A study of Mus musculus with 9 samples.

Results

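The genes described here are 10 genes of prohormone processing and neuropeptide storage, measured in the mediobasal hypothalamus of mice carrying a floxed Snord116 allele. They are Nhlh2, Pcsk1, Pcsk2, Pcsk1n, Scg5, Cpe, Pam, Scg2, Chgb and Vgf, picked by name for their roles, though with earlier results of these data known. All 10 had an entry among the 13588 entries of the table, and all 10 passed the filter on low values that left 13506 entries for testing. Every group consisted of adult male C57/BL6 mice homozygous for the floxed allele, including the controls, injected bilaterally into the mediobasal hypothalamus and studied 10 weeks later. The 6 AAV-Cre mice received an adeno-associated virus (AAV7) with Cre recombinase under the CAG promoter, and the 3 AAV-GFP mice a virus with green fluorescent protein under the CMV promoter, so the vectors differed in promoter as well as in cargo, and per the study's methods the Cre vector also had the higher titre. The AAV-Cre mice came from an obese subset (3 mice) and a nonobese subset (3 mice), set by weight gain after surgery. Neither promoter is specific to a cell type, and the tissue contains infected and uninfected cells.

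Prohormones of peptidergic neurons are cut at pairs of basic residues by the convertases PC1/3 (Pcsk1) and PC2 (Pcsk2) inside secretory granules. The basic residues are then trimmed by carboxypeptidase E (Cpe), and many peptides are amidated by peptidylglycine alpha-amidating monooxygenase (Pam). ProSAAS (Pcsk1n) and 7B2 (Scg5) are binding partners that inhibit PC1/3 and PC2, while secretogranin II (Scg2), chromogranin B (Chgb) and Vgf are granule cargo proteins that are themselves cut into peptides. Nhlh2 is a basic helix-loop-helix transcription factor of hypothalamic neurons that has been described as an activator of Pcsk1, and both genes have been proposed as links between loss of Snord116 and hyperphagia. The libraries allowed the question of whether these transcripts differed after hypothalamic deletion in adult mice.

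The sequences upstream of Nhlh2 and Pcsk1 are shown because the proposed relation between these genes runs through such DNA. They were taken from RefSeq promoter windows of GRCm38.p6, each of 250 bases before to 50 bases after a RefSeq start. The pieces of Nhlh2 and Pcsk1 end before the first base of the GENCODE gene. Those of Scg2 and Chgb lie before the RefSeq start but inside the span of the GENCODE gene. Windows were matched for 8 of the 10 genes, all but Cpe and Vgf. Capitals mark an E-box (CANNTG, the letters bound by helix-loop-helix factors) in Nhlh2 and a cAMP response element (CRE, TGACGTCA) in the other genes. Both motifs read the same on either strand, and no piece shown holds both.
Nhlh2, chr3:102009895-102010075, plus strand: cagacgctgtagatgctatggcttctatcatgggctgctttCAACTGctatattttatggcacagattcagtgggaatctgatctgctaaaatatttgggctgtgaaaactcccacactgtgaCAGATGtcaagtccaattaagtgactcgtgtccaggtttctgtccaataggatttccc
Pcsk1, chr13:75089607-75089825, plus strand: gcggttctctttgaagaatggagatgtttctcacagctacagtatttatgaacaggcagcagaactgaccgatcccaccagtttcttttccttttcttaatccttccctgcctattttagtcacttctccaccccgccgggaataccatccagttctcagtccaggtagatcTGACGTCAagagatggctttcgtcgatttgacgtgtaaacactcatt
Scg2, chr1:79440076-79440105, minus strand: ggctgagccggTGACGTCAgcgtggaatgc
Chgb, chr2:132781559-132781588, plus strand: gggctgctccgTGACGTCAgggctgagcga

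The full window of Nhlh2 held 4 E-boxes, and that of Pcsk1 held 0. An E-box occurred in 7 of the 8 genes with a window, in at least 1 window each, beside 72.3% of all 32851 windows. The CRE occurred in 3 of the 8 (Pcsk1, Scg2 and Chgb), beside 1.79% of all windows. It lay 78 bases before the RefSeq start of Pcsk1, 68 before that of Scg2 and 72 before that of Chgb. A STAT site (TTCNNNGAA) occurred in 2 of the 8 (Scg5 and Scg2), beside 8.30% of all windows. These are matches of letters, not evidence of binding, and DNA outside the windows was not searched.

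The labels of the AAV-Cre samples contradict each other. Where a title holds the word obese (3 samples) the weight is given as non-obese, and where it does not (3 samples) the weight is given as obese. The mice are named here by the weight label, and the comparison of the subsets would change sign under the titles. Each library came from a single mouse, from regions laser-captured on a single brain slice where an adjacent section stained for Cre, or from matching regions of AAV-GFP mice. Values are reads per gene scaled by library size, here called signal, and 3929672 to 5766994 reads lay behind each library. A signal of 0.525 to 0.786 corresponded to 3 reads, and this floor covers counting error only. Cre was covered by 1011 to 37704 reads in AAV-Cre libraries and by 0 to 5 in AAV-GFP libraries, and Gfp by 317 to 350 reads in AAV-GFP libraries and by 0 in the others. The Cre signal was 1330 and 235 in mice 1 and 3 of the obese label and 4644 to 8557 in the other AAV-Cre mice. The part of this difference in the results below was not tested. The deletion itself was not checked here: 0 of the 17 annotated Snord116 genes had an entry, and other transcripts of the locus were not examined. Its extent in these mice is therefore not given.

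Marker genes differed between libraries, and a score here is the mean log2(signal + 1) of a list. All 10 listed neuronal markers were detected in every library, with a score of 7.81 to 8.43 and a summed signal of 4836 to 5342 in AAV-GFP mice, 3790.1 to 5526 in obese-labelled mice and 4805 to 6242 in nonobese-labelled mice. All 7 microglial markers had an entry, and their score was 5.62 and 5.43 in mice 1 and 3 of the obese label and 3.17 to 3.95 in the other 7 mice. Their summed signal was 94.7 to 128 in AAV-GFP mice, 132 to 545 in obese-labelled mice and 103 to 110.1 in nonobese-labelled mice. Of 7 plasma and B cell markers 6 had an entry, with a summed signal of 0.383 to 1.75 in AAV-GFP mice, 153 to 9035 in obese-labelled mice and 41.3 to 110.1 in nonobese-labelled mice. Their score was 7.71 and 8.66 in mice 1 and 3 of the obese label, 3.41 in obese-labelled mouse 2, 1.85 to 2.41 in nonobese-labelled mice and 0.0780 to 0.273 in AAV-GFP mice, where 3 to 5 of the 6 were at 0. The T cell score (3 markers) was 3.89 and 3.33 in mice 1 and 3 of the obese label and 0.297 to 1.05 in the other mice. The astrocyte score (8 markers) was 7.06 to 7.69 in obese-labelled mice and 6.51 to 7.11 in the others. The oligodendrocyte score (6 markers) was 5.26 in obese-labelled mouse 2 and 6.20 to 7.51 in the others, and the endothelial score (6 markers) was 2.99 to 4.73. Of 5 markers of tanycytes and ependymal cells only Col23a1 had an entry (2.45 to 5.05), and of 4 choroid plexus markers only Kl (0.608 to 4.47). Single genes do not cover these cell types. The score of 4 markers of the ventromedial nucleus was 1.46 to 1.96 in mouse 3 of each group and in obese-labelled mouse 1, and 3.71 to 4.84 in the other 5 mice. Of the 6 arcuate markers 5 had an entry, with a score of 2.57 to 5.22, and of 6 markers of pituitary cells 0 had one. In such tissue, fewer cells of a type and less RNA per cell cannot be told apart.

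The 10 transcripts covered a wide range of levels. Per kb of exon, the mean signal over the 9 mice was 393 ± 59.4 (SD) for Scg2, 267 ± 46.2 for Pcsk1n, 262 ± 37.7 for Cpe and 224 ± 41.6 for Chgb. These 4 granule genes ranked between 49 and 94 among 13446 genes with an exon length. Scg5 followed with a signal per kb of 86.8 ± 14.1, Vgf with 45.3 ± 20.8 and Pam with 37.7 ± 1.81. The convertases were lower, at 15.0 ± 2.93 for Pcsk2 and 6.05 ± 1.70 for Pcsk1, so that the transcript of the cutting enzyme was far rarer than those of its inhibitor and of the trimming enzyme. Nhlh2 was the lowest of the 10, at 2.89 ± 1.73 and rank 9173. Neighbours in this order were compared within mice by exact sign-flip permutation tests (2-sided, adjusted over 9 pairs). The order was set by the same 9 mice, so the p-values are not independent of it. Pcsk1n and Cpe (adjusted p = 0.902), Cpe and Chgb (0.0653) and Vgf and Pam (0.765) were not separated, and the other 6 pairs were, with adjusted p-values between 0.00879 and 0.0234. The order depends on the length used: with the longest transcript in place of all exons, Pam rose to 109 per kb and passed Vgf, at 47.5, and Cpe passed Pcsk1n. With that length only 3 of 9 neighbouring pairs were separated (Chgb and Scg5, Pam and Vgf, Pcsk2 and Pcsk1, each with an adjusted p of 0.0117 by the exact test). Scg2 was then not separated from Cpe, nor Pcsk1 from Nhlh2 (adjusted p = 0.0603 for both by the exact test). The gene Pam overlaps the noncoding B230216N24Rik (15 to 76 reads per library), Pcsk2 the antisense Pcsk2os1 (13 to 60 reads) and Pcsk1n the opposite gene Eras, and the sources used here do not say whether counting used strand.

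**Figure D1:**
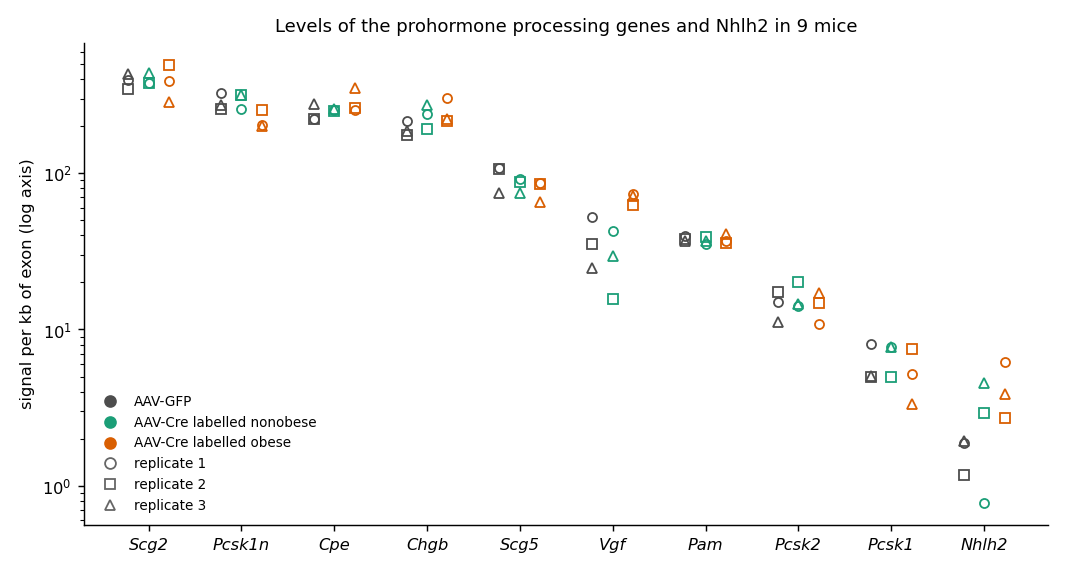
Signal per kb of exon (log axis) of the 10 genes, in order of their mean, with a point for each of 9 mice, colours for the groups and symbols for the replicate number. Scg2, Pcsk1n, Cpe and Chgb lie at the top (means of 224 to 393), Pcsk1 (6.05) and Nhlh2 (2.89) at the bottom, and Vgf and Nhlh2 have the widest spread between mice.

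Spread between mice also separated the genes. The coefficient of variation over all 9 mice was 4.81% for Pam, 14.4% for Cpe and 15.1% for Scg2. It was 28.0% for Pcsk1, 46.0% for Vgf and 59.9% for Nhlh2. Over all 9 mice Pam, the amidating enzyme, was thus the steadiest of the 10, and the transcription factor the most variable. These values mix spread within groups with differences between groups, and Nhlh2 had 24 to 149 reads beside 1766 to 2388 for Pam. Within obese-labelled mice Pam (6.8%) and Nhlh2 (41.5%) kept these places. In AAV-GFP mice Vgf was the most variable (36.9%, Nhlh2 25.9%), and in nonobese-labelled mice Cpe was the steadiest (1.63%, Pam 5.08%).

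Nhlh2, the proposed activator of Pcsk1, had a signal of 10.2, 6.32 and 10.5 in AAV-GFP mice 1, 2 and 3. It was 33.5, 14.8 and 20.9 in the obese-labelled mice and 4.2, 15.7 and 24.5 in the nonobese-labelled mice, from 24 to 149 reads per library. All 3 obese-labelled mice lay above every AAV-GFP mouse, while the nonobese-labelled mice held both the lowest value of the experiment and 2 values above the controls. Against AAV-GFP, the log2 FC was 1.22 (SE 0.589, limma FDR = 0.502) in the obese-labelled mice, a fold of 2.33 with a 95% interval of 1.0 to 5.4. It was 0.41 (SE 0.589, limma FDR = 0.999) in the nonobese-labelled mice, a fold of 1.33 with an interval of 0.57 to 3.09. Neither passed the threshold, an FDR under 0.1, and the intervals allow several-fold higher levels. The direction in the nonobese-labelled mice rests on mouse 3, without which the log2 FC was −0.07. Without mice 1 and 3 of the obese label, which stood apart in immune markers, the log2 FC of the remaining obese-labelled mouse was 0.68, a value of a single library.

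Pcsk1, the convertase PC1/3, had a signal of 45.1, 27.8 and 28.2 in AAV-GFP mice. It was 29.2, 41.8 and 18.8 in obese-labelled mice and 43.6, 27.8 and 43.1 in nonobese-labelled mice, from 81 to 249 reads per library. The 3 groups overlapped throughout, with means of 33.7 ± 9.91, 29.9 ± 11.5 and 38.1 ± 9.0 (SD, n = 3 each). The log2 FC against AAV-GFP was −0.20 (SE 0.369, limma FDR = 0.904) in the obese-labelled mice, and 0.18 (SE 0.369, limma FDR = 0.999) in the nonobese-labelled mice. As folds these were 0.87 (95% interval 0.51 to 1.48) and 1.13 (0.67 to 1.92). The values of 3 mice a group thus allow changes in either direction within these bounds. Over all 6 AAV-Cre mice the fold was 0.99 (0.62 to 1.59), and the log2 FC of −0.01 turned to 0.02 or 0.03 in count tests on the recovered reads. Without AAV-GFP mouse 1 or obese-labelled mouse 3, the log2 FC in the obese-labelled mice was 0.03 and 0.09.

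Pcsk2, the convertase PC2, had a signal of 118, 137 and 88.9 in AAV-GFP mice. It was 86.2, 118 and 135 in obese-labelled mice and 112, 160.3 and 116 in nonobese-labelled mice. These values overlapped in all groups, and nonobese-labelled mouse 2 had the highest. The fold against AAV-GFP was 0.98 (95% interval 0.71 to 1.37, limma FDR = 0.981) in obese-labelled mice and 1.13 (0.81 to 1.57, limma FDR = 0.999) in nonobese-labelled mice.

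**Figure D2:**
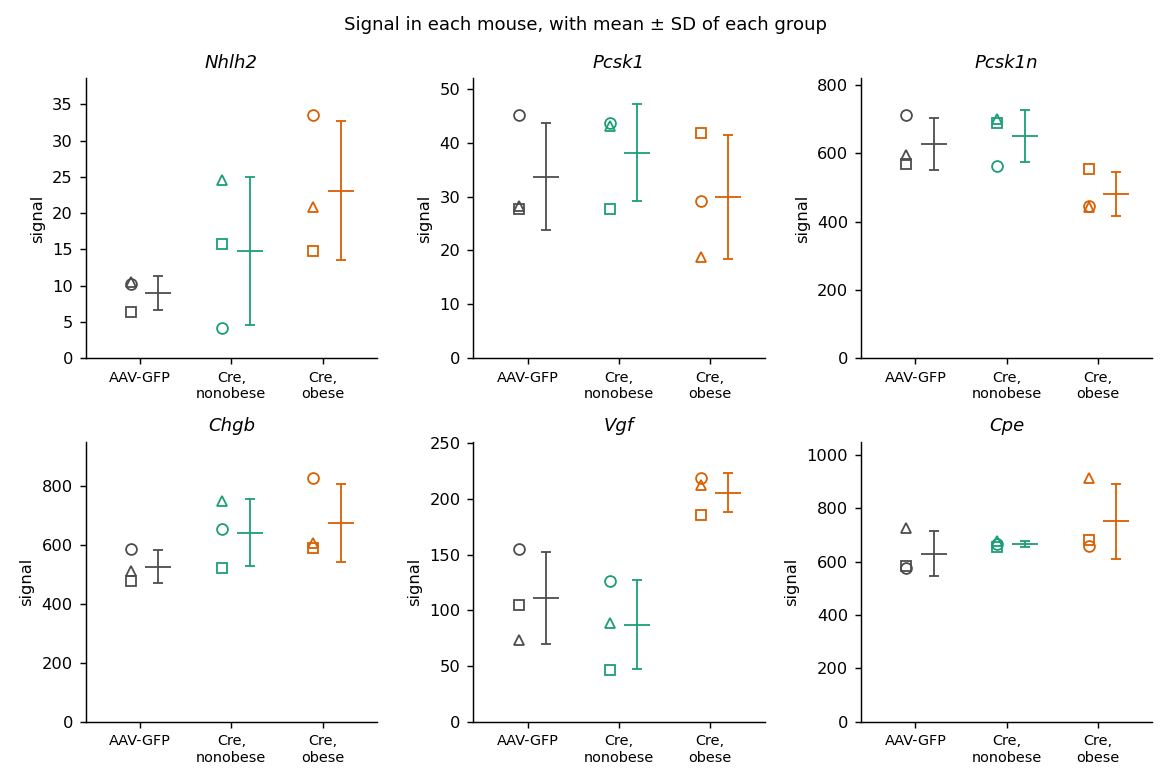
Signal of 6 of the genes in each mouse (open symbols, shaped by replicate number), beside the mean ± SD of its group of 3; each axis starts at 0, and subsets are named by their weight label. For Vgf the 3 obese-labelled mice (186 to 219) stand above all other mice (46.9 to 155). For Pcsk1n they (442 to 555) lie below all others (563 to 712), by a narrow gap. Pcsk1 overlaps in all groups (18.8 to 45.1), and 1 obese-labelled mouse stands out for Cpe (913).

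No relation of Nhlh2 to Pcsk1 was detectable over the 9 mice, a number at which only a strong relation could be detected. The relation of their log2(signal + 1) values had a Pearson r of −0.28 (exact permutation p = 0.467) and a Spearman rho of −0.30 (exact permutation p = 0.437). Of 9 relations computed, between Nhlh2 and each of the other genes, 0 had an adjusted p under 0.05, and the adjusted values for Pcsk1 were 0.709 and 0.644. Without the 2 mice farthest from the median of Nhlh2, obese-labelled mouse 1 and nonobese-labelled mouse 1, r was −0.01. Within groups, over deviations from the group means, r was −0.16. The largest of the 9 coefficients were those with Chgb (r = 0.58, exact permutation p = 0.105, adjusted p = 0.645) and with Scg5 (r = −0.53, exact permutation p = 0.143, adjusted p = 0.645). Without the same 2 mice, r was 0.81 with Chgb, −0.74 with Scg5 and 0.61 with Cpe. With the other genes it then lay between −0.07 and 0.11. These values over 7 mice were not tested.

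**Figure D3:**
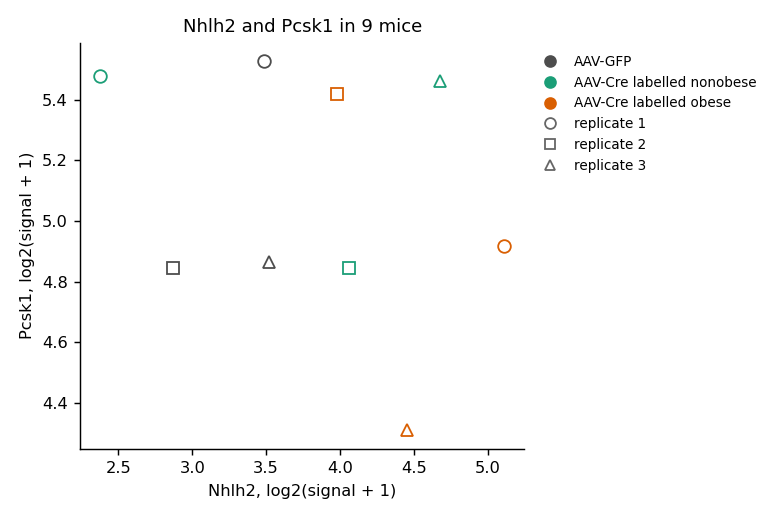
Log2(signal + 1) of Nhlh2 (horizontal) and Pcsk1 (vertical) in each of the 9 mice, coloured by group and shaped by replicate number. The points scatter with a weak negative slope (r = −0.28); the mouse with the most Nhlh2 and the mouse with the least both have replicate number 1, in different AAV-Cre subsets.

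The genes whose levels followed Pcsk1 most closely over the 9 libraries, of 13505 compared by Pearson r, were Ctxn2 (0.92), Pcyt2 (0.92), Hnrnpdl (0.92), Cby1 (0.91) and Serac1 (0.91). Nhlh2 ranked at place 9934 in that list. For Nhlh2, the closest were P2rx4 (0.94), Ece1 (0.92), Gm22824 (0.90), Dnajc13 (0.90) and Lars2 (0.90), and Pcsk1 ranked at place 10014. Each named gene was picked as among the highest of 13505 coefficients over only 9 libraries, where high values can arise without a relation. None of these coefficients was tested. The 9 libraries also differ in depth and cell content. Among the named genes, Ctxn2 had 2 to 83 reads per library and Gm22824 had 4 to 44. Between pairs of the 10 genes the coefficients ran from −0.91 (Scg5 with Cpe) to 0.71 (Pcsk1 with Scg2), with Pcsk1 and its inhibitor gene Pcsk1n at 0.58.

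Cpe, which trims basic residues from cut peptides, had a signal of 578, 585 and 728 in AAV-GFP mice. It was 659, 682 and 913 in obese-labelled mice and 666, 655 and 677 in nonobese-labelled mice. Obese-labelled mouse 3 was the highest, and the nonobese-labelled mice lay within the range of the controls. The fold against AAV-GFP was 1.19 (95% interval 0.96 to 1.47, limma FDR = 0.625) in obese-labelled mice, and 1.06 (0.86 to 1.32, limma FDR = 0.999) in nonobese-labelled mice. Pam, the amidating enzyme, had a signal between 418 and 486 in all 9 mice. Its folds against AAV-GFP were 1.0 (0.81 to 1.22, limma FDR = 0.99) in obese-labelled mice and 0.97 (0.79 to 1.19, limma FDR = 0.999) in nonobese-labelled mice.

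Pcsk1n, whose product proSAAS inhibits PC1/3, had a signal of 712, 569 and 596 in AAV-GFP mice. It was 445, 555 and 442 in obese-labelled mice and 563, 689.9 and 699.7 in nonobese-labelled mice. Every obese-labelled mouse lay below every mouse of the other groups, with 555 in obese-labelled mouse 2 close to the lowest of the others at 563. The log2 FC of obese-labelled mice against AAV-GFP was −0.38 (SE 0.152, limma FDR = 0.381), a fold of 0.77 (95% interval 0.62 to 0.95). Nonobese-labelled mice exceeded those labelled obese by a log2 FC of 0.44 (SE 0.152, limma FDR = 0.239) and did not differ detectably from AAV-GFP (fold 1.04, 0.84 to 1.29). Neither difference passed the threshold in all 9 mice. Both passed it without obese-labelled mouse 2 (limma FDR = 0.0733 and 0.0333). Obese-labelled mouse 2 alone had a log2 FC against AAV-GFP of −0.17, a value of a single library. The 2 mice with the lowest Pcsk1n were those with the highest microglial and plasma cell scores and with the lowest neuronal scores (7.95 and 7.81, beside 8.17 to 8.43 in the other mice), and the part of these in the result was not tested.

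Scg5, whose product 7B2 is needed to form active PC2, had a signal of 169, 167 and 117 in AAV-GFP mice. It was 137, 134 and 103 in obese-labelled mice and 145, 138 and 117 in nonobese-labelled mice. In every group mouse 3 had the lowest Scg5, and the groups overlapped. The fold against AAV-GFP was 0.83 (95% interval 0.62 to 1.12, limma FDR = 0.716) in obese-labelled mice and 0.89 (0.66 to 1.2, limma FDR = 0.999) in nonobese-labelled mice. Mouse 3 of each group also had a low score of ventromedial markers, but so did obese-labelled mouse 1, which had the highest Scg5 of its group, and the part of the captured position in Scg5 was not tested.

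Scg2, the granin with the highest level of the 10, had a signal of 994, 877 and 1084 in AAV-GFP mice. It was 983, 1247 and 721 in obese-labelled mice and 944, 946 and 1109 in nonobese-labelled mice. Its group means were 985 ± 104, 984 ± 263 and 999.6 ± 94.4 (SD, n = 3 each), and the obese-labelled mice held both the highest and the lowest value. The folds against AAV-GFP were 0.98 (95% interval 0.77 to 1.23, limma FDR = 0.967) and 1.02 (0.80 to 1.28, limma FDR = 0.999). The signs of these small differences turned under other settings, and no direction is given for Scg2. Chgb, a granin with a CRE in its promoter window like Scg2, had a signal of 588, 479 and 512 in AAV-GFP mice. It was 827, 591 and 606 in obese-labelled mice and 654, 523 and 749 in nonobese-labelled mice. Every obese-labelled mouse lay above every AAV-GFP mouse, and 2 of 3 nonobese-labelled mice did. The log2 FC against AAV-GFP was 0.35 (SE 0.163, limma FDR = 0.486) in obese-labelled mice and 0.28 (SE 0.163, limma FDR = 0.999) in nonobese-labelled mice. For all 6 AAV-Cre mice it was 0.31 (SE 0.145, limma FDR = 0.999), higher than every control in 5 of 6 mice. None of these passed the threshold. Obese-labelled mouse 2 alone had a log2 FC against AAV-GFP of 0.17, again from a single library.

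Vgf is a granin-like protein whose peptides are released from neurons and affect energy balance. Between the AAV-Cre subsets Pcsk1n also did not overlap, but of the 10 genes only Vgf passed the threshold. Its signal was 155, 105 and 73.6 in AAV-GFP mice, 219, 186 and 213 in obese-labelled mice and 126, 46.9 and 88.3 in nonobese-labelled mice. All 3 obese-labelled mice lay above all 6 other mice, which overlapped each other. Vgf was higher in obese-labelled mice than in nonobese-labelled mice: for nonobese against obese the log2 FC was −1.34 (SE 0.285, limma FDR = 0.0245), a fold of 0.40 (95% interval 0.26 to 0.60). Mean signals were 206 ± 17.5 in obese-labelled mice, 87.2 ± 39.7 in nonobese-labelled mice and 111 ± 41.1 in AAV-GFP mice (SD, n = 3 each). Against AAV-GFP, the log2 FC of 0.94 in obese-labelled mice (SE 0.285, fold 1.92, 1.28 to 2.89) did not pass the threshold (limma FDR = 0.203), nor did that of −0.39 in nonobese-labelled mice (limma FDR = 0.999). With 3 mice against 3, an exact permutation test gave p = 0.1 for the former and for the difference between subsets, the smallest value it can give.

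The call on Vgf was lost without each of 3 mice, while its size moved little for 2 of them. The log2 FC between subsets was −1.29 without obese-labelled mouse 1 (limma FDR = 0.190) and −1.31 without obese-labelled mouse 3 (limma FDR = 0.136), close to that of all 9 mice. It was −0.95 without nonobese-labelled mouse 2 (limma FDR = 0.177). The difference of obese-labelled mice against AAV-GFP passed the threshold without obese-labelled mouse 2 (limma FDR = 0.0616) or without nonobese-labelled mouse 2 (limma FDR = 0.0963). It also passed with the replicate number as a block (limma FDR = 0.0449), though the labels do not say whether these numbers pair the mice. Mice 1 and 3 of the obese label, with the highest microglial scores (5.62 and 5.43) and plasma cell scores (7.71 and 8.66), had Vgf signals of 219 and 213. Obese-labelled mouse 2 had a Vgf signal of 186, with a microglial score of 3.91 within the range of the AAV-GFP mice (3.17 to 3.95) and a neuronal score of 8.27. Its plasma and B cell score of 3.41 lay above those of all nonobese-labelled mice (1.85 to 2.41) and all AAV-GFP mice (0.0780 to 0.273). Without mice 1 and 3 of the obese label, the log2 FC between subsets was −1.19, a difference of similar size that rests on this mouse alone. Vgf signals of mice with a low ventromedial score ran from 73.6 to 219 and those of mice with a high score from 46.9 to 186.

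**Figure D4:**
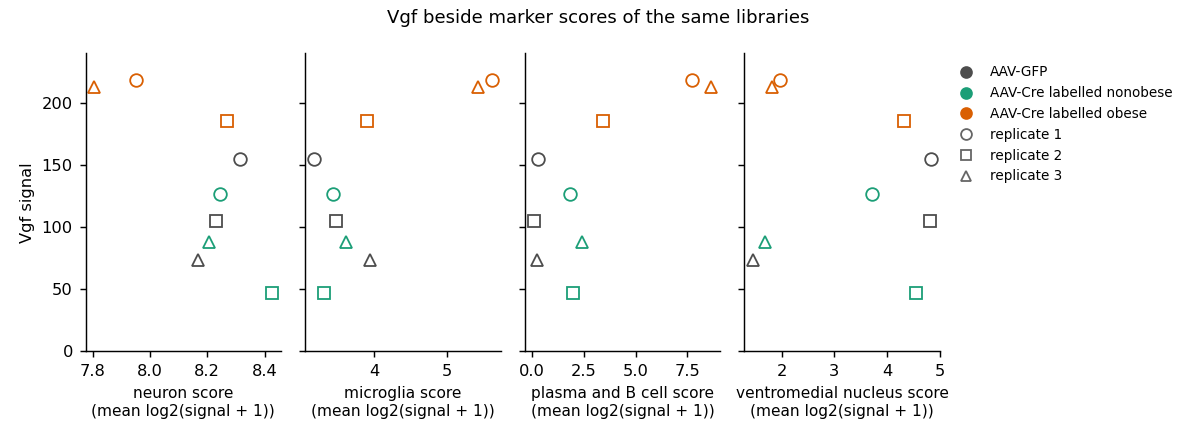
Vgf signal (vertical, from 0) of each of the 9 mice against the mean log2(signal + 1) of neuronal, microglial, plasma and B cell, and ventromedial nucleus markers (horizontal), coloured by group and shaped by replicate number. Mice 1 and 3 of the obese label lie at the right end of the microglial and plasma cell panels, while obese-labelled mouse 2 has a Vgf signal of 186 at a microglial score of 3.91 and a plasma and B cell score of 3.41, the third highest.

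Across the 10 genes, the comparisons can be read against the whole table. In obese-labelled mice against AAV-GFP, 0 of 10 genes passed an FDR of 0.1 (0.555% of all entries did), and 4 of 10 had an unadjusted limma p under 0.05 (9.88% of all entries). In the same comparison 4 of 10 had groups that did not overlap (14.5% of all entries), namely Nhlh2, Chgb and Vgf higher and Pcsk1n lower. In nonobese-labelled mice against AAV-GFP the counts were 0 of 10 by FDR (0.0148% of all entries), 0 by unadjusted p (2.27%) and 0 without overlap (9.72%). Comparing all 6 AAV-Cre mice with AAV-GFP, 0 of 10 passed by FDR (0.0222% of all entries), 1 had an unadjusted p under 0.05 (3.14%), which was Chgb, and 0 were without overlap (2.01%). Between the subsets, 1 of 10 passed by FDR (0.948% of all entries), which was Vgf. There 2 of 10 had an unadjusted p under 0.05 (11.4%) and the same 2, Vgf and Pcsk1n, were without overlap (13.3%). On the recovered reads, edgeR and DESeq2 called 0, 0, 0 and 1 of the 10 in these comparisons, the last again Vgf. The median log2 FC of the 10 was −0.02, 0.07, 0.04 and 0.01 in the order of these comparisons, beside −0.04, −0.02, −0.03 and 0.02 over all entries. The first 3 comparisons share the AAV-GFP mice, and the last shares its mice with them.

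**Figure D5:**
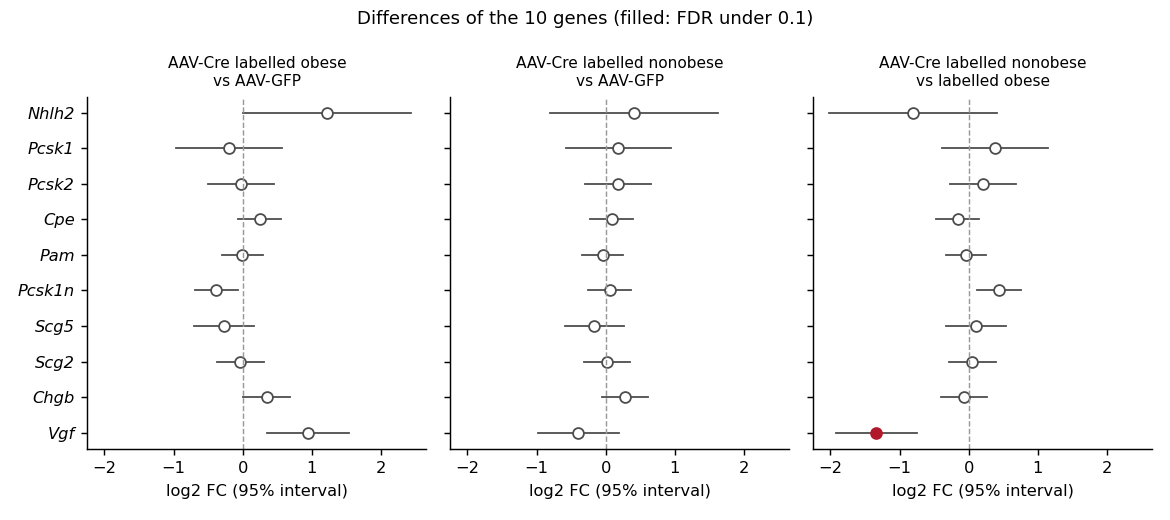
Log2 FC of the 10 genes (points) with 95% intervals (lines) in 3 comparisons, from limma on log2(signal + 1); a filled point has an FDR under 0.1. Vgf between the subsets (−1.34) is the filled point, and the intervals of Pcsk1, Pcsk2, Cpe, Pam, Scg5 and Scg2 include 0 in every panel.

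Other genes of the pathway were taken from lists of 87 genes, of which 72 were tested. In obese-labelled mice against AAV-GFP 0 of the 72 passed the threshold (0.555% of all entries), and 4 higher and 9 lower had an unadjusted limma p under 0.05 (9.88% of all entries). Among 24 genes of the dense-core vesicle machinery, 5 were of that kind, all lower. The median log2 FC of these 24 was −0.19, beside −0.23 for the 10 neuronal markers, of which 9 had a negative log2 FC and 3 an unadjusted limma p under 0.05. The part of neuronal content in the values of this list was not tested. These included Cadps2, a priming factor of such vesicles, with a signal of 96.7 to 112 in AAV-GFP mice and 21.4 to 69.2 in obese-labelled mice (log2 FC −1.31, limma FDR = 0.108). They also included Rab3a, a small GTPase of secretory vesicles, with 324 to 388 and 227 to 290.5 (log2 FC −0.45, limma FDR = 0.311). Among 5 other granins and sorting proteins, Sort1 had a log2 FC of −0.52 (limma FDR = 0.410) and Scg3, which helps cargo into granules, 0.32 (limma FDR = 0.591). Of 6 other proprotein convertases tested 0 had an unadjusted p under 0.05, with Pcsk6 at −0.75 (limma FDR = 0.695) and Pcsk7 at −0.46 (limma FDR = 0.833). Of 13 other peptide-modifying and degrading enzymes, Prcp had a log2 FC of 1.91 (limma FDR = 0.445) and Ctsl of 0.52 (limma FDR = 0.552). The value of Prcp rests on few reads, 0, 17 and 10 in AAV-GFP mice and 40, 16 and 57 in obese-labelled mice. Creb1, which encodes a factor that binds the CRE, had a log2 FC of 0.24 (limma FDR = 0.827). Against AAV-GFP, nonobese-labelled mice had 0 calls among the 72, with 1 gene higher and 1 lower at an unadjusted p under 0.05 (2.27% of all entries).

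Between the subsets 2 of the 72 passed the threshold (0.948% of all entries), both lower in nonobese-labelled mice, and 11 higher and 5 lower had an unadjusted limma p under 0.05 (11.4% of all entries). Stat3, which carries the leptin signal to the nucleus and has been proposed to act with Nhlh2 on Pcsk1, had a signal of 178, 87.4 and 204 in obese-labelled mice and 75.8, 60.8 and 61.9 in nonobese-labelled mice (log2 FC −1.15, SE 0.260, limma FDR = 0.0386). In AAV-GFP mice Stat3 was 97.7, 93.3 and 107, so that obese-labelled mouse 2 lay below the controls and mice 1 and 3, with high immune scores, above them. Trh, the precursor of thyrotropin-releasing hormone and a substrate of both convertases, had a signal of 30.6, 30.2 and 69.5 in obese-labelled mice, 12.6, 1.57 and 8.54 in nonobese-labelled mice and 3.74, 13.6 and 9.13 in AAV-GFP mice. Its log2 FC between the subsets was −2.57 (SE 0.637, limma FDR = 0.0699), from 6 to 299 reads per library. As for Vgf, all 3 obese-labelled mice lay above all 6 others for Trh. Of the 19 neuropeptide precursors tested, Bdnf was at 13.4 to 15.0 in AAV-GFP mice, at 0 to 7.26 in obese-labelled mice and at 2.10 to 11.9 in nonobese-labelled mice (limma FDR = 0.185 for obese against AAV-GFP). Oxt, Avp, Cck and 8 other listed precursors had no entry and were not analysed here.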

How the data were processed

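RNA of laser-captured mediobasal hypothalamus was sequenced from 9 mice, 1 library each. Per the submitters' processing notes, reads were mapped to GRCm38 with TopHat2 2.0.11 and HTSeq, edgeR and limma were used; strand setting and filters are not given in the sources used here. The deposited values are signal, which the authors made as reads per gene divided by a TMM-scaled library size and multiplied as in CPM. In each library 100% of values were whole multiples of 1 read (within 0.01 reads), so whole reads were recovered for count tests. No entry had fewer than 50 reads in all. Symbols were matched for 13446 of 13586 Ensembl identifiers, and gene models come from GENCODE M21.

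Groups follow the weight and treatment labels. Log2(signal + 1) was fitted with limma 3.58.1 (R 4.3.3) over all 3 groups with a variance trend, for the 13506 entries that reached a signal of 1 in 3 or more libraries, with Benjamini-Hochberg adjustment over all of them and a call at an FDR under 0.1. For all AAV-Cre mice against AAV-GFP, a fit of 2 groups was used. Log2 FCs on this scale understate the change of low genes. Although the design was written for CPM, the same test was used for signal. Single values were compared by 2-sided exact permutation tests (scipy 1.17.1). The genes, lists, markers and tests were chosen with earlier results of these data known. Named genes are the 10, every listed pathway gene with an FDR under 0.1, the 2 of each list with the lowest p in obese-labelled mice against AAV-GFP, and the 5 entries most like Pcsk1 and Nhlh2. Each result was recomputed with another pseudocount (0.1 or 5), with the low-value filter dropped or raised to a signal of 5, with a fit of the compared groups alone, after median centring or quantile normalization, without the variance trend, with a replicate block, at an FDR of 0.05, with edgeR 4.0.16 (both its quasi-likelihood and its likelihood ratio test) and DESeq2 1.42.0, and with each mouse left out. Leaving out both mice with high immune scores was chosen after the values were seen. The fits were tested on simulated reads. Comparisons made by the authors were not used.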

Additional observations from a re-analysis of the deposited data

Results flagged for a closer look

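The Cpe signal of obese-labelled mouse 3 (913) stood apart from those of the other 5 AAV-Cre mice, which ran from 655 to 682. Its gap to the nearest of them was 0.898 of the whole range of the 6, above Dixon's critical value of 0.625. This was 1 of 10 genes examined in the AAV-Cre mice, of which chance would single out 0.5 on average. The same mouse had the lowest Scg5 (103), Scg2 (721) and Pcsk1 (18.8) of the experiment, a plasma and B cell score of 8.66 and a neuronal score of 7.81, and the part of these in its Cpe value was not tested.

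The difference of Vgf from AAV-GFP was not the same in both AAV-Cre subsets. The log2 FC was 0.94 in obese-labelled mice and −0.39 in nonobese-labelled mice, and the difference between them, which is the direct comparison of the subsets, was −1.34 (SE 0.285, limma FDR = 0.0245). Vgf was lower in 3 of 3 nonobese-labelled mice than in any obese-labelled mouse. Because titles and weight labels contradict each other, which of the subsets was the obese one cannot be told from these labels.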

How the results depend on the processing

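With 3 mice a group and as few as 24 reads for Nhlh2 and 81 for Pcsk1, only large differences of these genes were detectable. Of 920 log2 FCs over the 10 genes, 4 comparisons and their alternatives, 856 kept their direction and their side of the threshold, 54 turned their sign and 10 crossed the threshold. The relation of Nhlh2 to Pcsk1 kept its direction and its side of the threshold in all 15 of its alternatives (r −0.46 to −0.07 with each mouse left out).

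The labels do not say whether the replicate numbers pair the mice. Per the study's methods the AAV-GFP controls were matched by region, without naming which mouse each was matched to. Over all entries, deviations of same-numbered libraries had correlations of −0.0199 to 0.0897. Of the 9 libraries 6 correlated best with their own number, a hint from the data and not the design. With the replicate number as a block, 1 gene, Vgf, was called in obese-labelled mice against AAV-GFP (limma FDR = 0.0449) where 0 were without it, and the block changed no other call. Between the subsets 0 genes were called without a variance trend (Vgf FDR = 0.337) and 0 without both mice of high immune scores (Vgf log2 FC −1.19, limma FDR = 0.272), where the obese-labelled arm is a single library assumed to vary like the other groups, so that its FDR says little. With each mouse left out, 0 to 2 genes were called in either comparison. Over the whole table the number of entries called ran from 5 to 275 in obese-labelled mice against AAV-GFP (75 in the fit reported) and from 15 to 398 between the subsets (128) across the settings other than left-out mice. With each mouse left out they ran from 9 to 720 and from 2 to 908: both highest values were without obese-labelled mouse 2, and the lowest without obese-labelled mouse 1 (9 and 2), with 12 and 3 without obese-labelled mouse 3 and 9 in the former without AAV-GFP mouse 1, so the shares of all entries called rest on single mice. The level per length moved by more than its SD with the longest transcript for 4 of the 10 genes. The cause of these changes was not tested.

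The log2 FCs that turned their sign were all of genes without a call in that comparison. Without both mice of high immune scores they were 0.34 for Pcsk1, 0.057 for Pcsk2 and 0.35 for Scg2 in obese-labelled mice against AAV-GFP. In all AAV-Cre mice they were 0.22 for Pcsk1, 0.00090 for Pcsk1n, 0.10 for Scg2 and −0.095 for Vgf. Between the subsets they were −0.16 for Pcsk1, −0.0094 for Scg5, 0.037 for Pam, −0.32 for Scg2 and 0.10 for Chgb. DESeq2 gave 0.016 for Pam and 0.018 for Scg2 in obese-labelled mice, and 0.026 for Pcsk1 and 0.019 for Scg2 in all AAV-Cre mice. In the latter comparison both edgeR tests gave 0.019 for Pcsk1 and 0.010 for Scg2. Quantile normalization gave −0.076 for Scg2 in nonobese-labelled mice against AAV-GFP, and median centring 0.025 for Pam between the subsets. With each mouse left out, the ranges in obese-labelled mice against AAV-GFP were −0.47 to 0.089 for Pcsk1, −0.20 to 0.15 for Pcsk2, −0.062 to 0.030 for Pam and −0.22 to 0.17 for Scg2. In nonobese-labelled mice they were −0.073 to 1.07 for Nhlh2, −0.0085 to 0.16 for Pcsk1n and −0.059 to 0.095 for Scg2. In all AAV-Cre mice they were −0.12 to 0.22 for Pcsk1, −0.095 to 0.21 for Pcsk2, −0.051 to 0.0020 for Pam and −0.086 to 0.083 for Scg2. Between the subsets they were −0.025 to 0.19 for Scg5, −0.074 to 0.018 for Pam, −0.15 to 0.24 for Scg2 and −0.19 to 0.085 for Chgb.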
